A study of Homo sapiens with 6 samples.

Results

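The genes described here form a stretch of chromosome 13, band q12.11, from MPHOSPH8 to XPO4, with SAP18 as a flank beyond its telomeric end. They are 10 of the 27980 gene symbols counted in each library: 9 in the stretch (MPHOSPH8, PSPC1, ZMYM5, ZMYM2, GJA3, CRYL1, IFT88, EEF1AKMT1 and XPO4) and SAP18. They were selected on their measured values, the 9 because their RNA was nearly absent from shTRIP6 libraries and SAP18 because its RNA was not. The difference between the groups in these 10 genes is therefore what chose them, and it is given as a description with no test.

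The RNA came from RKO, an established line grown from a poorly differentiated carcinoma of the human colon. The 3 shTRIP6 libraries were made from cells with a stable lentiviral insert that expresses a short hairpin RNA against TRIP6, a LIM-domain adaptor protein. The 3 shControl libraries were made from cells with a scrambled hairpin delivered in the same way, although the labels also give the genotype of these cells as WT. Both groups had been through puromycin at 5 µg/ml, begun 36 h after infection and kept up for some weeks, so all 6 libraries come from infected and drug-selected cells. The labels say neither whether each line was 1 clone or a pool of infected cells nor whether both lines came from 1 stock. They call the replicates biological without naming separate cultures, so p-values measure only the spread between these libraries. A difference that 2 lines or stocks had carried before infection cannot be told apart here from one that came with the hairpin.

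The 9 genes serve unlike functions. Their proteins work in heterochromatin silencing, RNA-binding nuclear bodies, transcriptional repression, gap junctions, sugar acid metabolism, transport inside cilia, methylation of a translation factor and export from the nucleus. MPHOSPH8 encodes the chromodomain subunit of the HUSH complex, which reads methylated histone H3 and silences retroelements. ZMYM2 encodes a MYM-type zinc finger protein that joins the LSD1-CoREST-HDAC corepressor, and XPO4 encodes a nuclear exportin whose cargoes include the translation factor eIF5A. What the genes share is their place on the chromosome.

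Promoter windows of RefSeq (build GRCh38.p14), each of 300 bases with 250 before and 50 after an annotated start, were found for 8 of the 10 genes and for LATS2, the gene between XPO4 and SAP18. EEF1AKMT1 and SAP18 had no entry. The windows of both ends of the stretch and of the first gene beyond it are shown, because the change in level falls between the last of these genes and its neighbour. They are MPHOSPH8 at chr13:19633409-19633708 on the plus strand, XPO4 at chr13:20902697-20902996 on the minus strand and LATS2 at chr13:21061537-21061836 on the minus strand, each written 5′ to 3′ along its gene. Capitals mark the GC box, GGGCGG, on either strand.
MPHOSPH8: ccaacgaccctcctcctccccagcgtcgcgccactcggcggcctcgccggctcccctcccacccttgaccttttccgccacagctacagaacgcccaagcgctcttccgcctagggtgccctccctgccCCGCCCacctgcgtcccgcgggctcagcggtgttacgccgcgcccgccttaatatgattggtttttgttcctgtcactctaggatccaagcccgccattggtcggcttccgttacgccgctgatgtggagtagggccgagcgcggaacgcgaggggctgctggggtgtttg
XPO4: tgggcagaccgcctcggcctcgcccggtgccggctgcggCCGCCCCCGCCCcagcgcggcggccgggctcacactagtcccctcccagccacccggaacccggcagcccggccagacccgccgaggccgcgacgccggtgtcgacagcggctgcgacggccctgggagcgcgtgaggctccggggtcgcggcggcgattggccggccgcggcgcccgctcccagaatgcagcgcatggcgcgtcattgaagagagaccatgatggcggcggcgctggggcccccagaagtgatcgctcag
LATS2: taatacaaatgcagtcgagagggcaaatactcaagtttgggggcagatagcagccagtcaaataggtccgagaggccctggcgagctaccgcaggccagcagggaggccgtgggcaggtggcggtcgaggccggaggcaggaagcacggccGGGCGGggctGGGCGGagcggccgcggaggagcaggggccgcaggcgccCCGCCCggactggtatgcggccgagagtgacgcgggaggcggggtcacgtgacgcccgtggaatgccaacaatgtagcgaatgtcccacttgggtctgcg
All of these are rich in CpG, with 31 CpG in the MPHOSPH8 window, 44 in the XPO4 window and 29 in the LATS2 window, against a median of 14 over all 35116 promoter windows of the same length. The GC box was found once in MPHOSPH8, in 2 places in XPO4 and in 3 in LATS2, and 45.0% of all windows held it. Over the 12 windows of the 9 genes with an entry, ZMYM2 having 3 and XPO4 2 of them, the CpG number ran from 10 in 1 of the ZMYM2 windows to 46 in a second XPO4 window. The TATA box, TATAAA, was in none of the 12, and 11.5% of all windows held it. CATTCC, the core of the TEAD element, was found in the GJA3 and LATS2 windows and in 14.0% of all windows. A match of letters is a description of the window and says nothing of binding.

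Each library held 29605764 to 32089298 counts. Levels are counts per 1000000 (CPM) with library sizes scaled by TMM, and 1 count was worth 0.0314 to 0.0336 CPM. TRIP6, the target of the hairpin, averaged 19.5 CPM in shTRIP6 and 80.3 CPM in shControl, which left 24.3% of its control level (log2 fold change -2.04 ± 0.07 SE, edgeR adjusted p = 1.25e-14). The keratin KRT8 was high in both groups, but 6 of the 13 epithelial and colonic markers listed (EPCAM, KRT20, CDX1, VIL1, FABP1 and CEACAM5) had 0 counts in all 6 libraries. The summed level of this list, nearly all of it KRT8 and KRT18, was 2532 to 2730 CPM in shTRIP6 and 2515 to 2802 CPM in shControl. KRT19 was higher, at 50.6 ± 3.15 CPM in shTRIP6 and 13.8 ± 2.27 CPM in shControl (edgeR adjusted p = 7.84e-12), and CDH1 was near 0 in both groups, at 0.0212 CPM in shTRIP6 and 0.272 CPM in shControl. The summed level of 8 fibroblast markers was 17.2 to 18.9 CPM in shTRIP6 and 30.6 to 34.4 CPM in shControl, and the members moved both ways. FAP had 0.328 ± 0.0763 CPM in shTRIP6 and 15.0 ± 1.33 CPM in shControl, whereas PDGFRB had 13.9 ± 1.18 CPM in shTRIP6 and 6.88 ± 1.23 CPM in shControl. The summed level of 7 leukocyte markers, nearly all of it CD68, was 236 to 245 CPM in shTRIP6 and 187 to 236 CPM in shControl, and that of 5 endothelial markers 0.257 to 0.288 CPM in shTRIP6 and 1.78 to 2.31 CPM in shControl. The part of these markers in the results below was not tested. Of 15473 genes that passed a filter on low counts, 60.1% were called by edgeR's quasi-likelihood test at a Benjamini-Hochberg adjusted p under 0.05, with 31.2% lower and 29% higher in shTRIP6.

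Summed together, the 9 genes gave 13, 17 and 12 counts in the 3 shTRIP6 libraries, against 1559, 1432 and 1612 counts in the 3 shControl libraries. Every shControl library thus held at least 1432 counts and no shTRIP6 library more than 17. The summed level averaged 0.446 ± 0.0854 CPM in shTRIP6 and 50.1 ± 3.64 CPM in shControl (SD, n = 3 each), so that 0.889% of the control level was left (95% exact interval from the summed counts 0.640% to 1.20%). Intervals here cover the error of counting alone and take every count as independent. The reads carry no molecular identifiers, and where several come from the same molecule the intervals are too narrow. In cultured lines fewer cells with the RNA and less RNA per cell cannot be told apart from such bulk values. All 10 genes passed the filter on low counts, the 9 of the stretch through their shControl libraries alone.

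In these 9 genes every shTRIP6 library lay below every shControl library, and each kept 5% or less of its shControl level. Over all tested genes the corresponding shares were 33.5% and 3.36%. The counts of the 9 follow from how they were chosen, and nothing is read from them. Each shTRIP6 library had a count in 4 of the 9 genes and each shControl library in all 9. Of the 27 values of these genes in shTRIP6, 15 were 0, and the highest was 8 counts, for XPO4 in replicate 2. The 4 genes that were counted were not the same from library to library: ZMYM2 and XPO4 had counts in all 3 shTRIP6 libraries, ZMYM5 in none.

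Among the genes with roles in chromatin, MPHOSPH8 lay at the centromeric end (19633681 to 19673459, plus strand, GENCODE release 29 on GRCh38, as for all gene positions here). It had 0, 2 and 0 counts in shTRIP6 (0, 0.0639 and 0 CPM), against 372, 327 and 379 counts in shControl (12.5, 10.5 and 12.3 CPM). The shControl libraries lay close together and far above the only counted shTRIP6 library. Of its shControl level of 11.7 ± 1.09 CPM, 0.181% was left (95% exact interval 0.0219% to 0.655%), the smallest share among the 8 genes with any count in shTRIP6. Part of its sequence is not its own: 18.2% of the 31-base words of its transcripts also occur in transcripts of other genes, chiefly in AC131206.1, and counting could have split such reads.

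ZMYM2 (19958670 to 20091829, plus strand) had 5, 5 and 3 counts in shTRIP6 (0.157, 0.160 and 0.0964 CPM), against 353, 394 and 456 counts in shControl (11.9, 12.6 and 14.7 CPM). It is one of the 2 genes counted in every shTRIP6 library, and 1.05% of its shControl level of 13.1 ± 1.49 CPM was left (95% exact interval 0.559% to 1.81%). ZMYM5 (19823482 to 19863636, minus strand), a related MYM-type zinc finger gene whose function is little described, had 0 counts in all 3 shTRIP6 libraries, against 75, 42 and 41 counts in shControl (2.52, 1.35 and 1.33 CPM). The first shControl library stood above the other two, and the coefficient of variation there was 39.5%. Set against a floor of 3 counts over the 3 shTRIP6 libraries together, ZMYM5 was 54.0-fold lower in shTRIP6. The 95% exact interval of its share ended at 2.30% of shControl, which allows a smaller difference than that. The transcripts of ZMYM2 and ZMYM5 share only 36 words of 31 bases, out of 13828 in ZMYM2.

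PSPC1 (19674752 to 19783019, minus strand) encodes an RNA-binding protein of paraspeckles, nuclear bodies built on the long noncoding RNA NEAT1. It had 0, 0 and 4 counts in shTRIP6 (0, 0 and 0.129 CPM), against 226, 186 and 184 counts in shControl (7.59, 5.97 and 5.95 CPM). Only the third shTRIP6 library had any count, and 0.654% of the shControl counts, scaled for depth, were left (95% exact interval 0.178% to 1.68%). Of its 31-base words 8.67% occur in other genes' transcripts, most of them in the pseudogene PSPC1P1.

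XPO4 (20777329 to 20903048, minus strand) closes the stretch on the telomeric side and was its most counted gene in both groups. It had 5, 8 and 3 counts in shTRIP6 (0.157, 0.256 and 0.0964 CPM), against 442, 398 and 480 counts in shControl (14.8, 12.8 and 15.5 CPM). All 3 shTRIP6 libraries held a few reads, none above 8, and 1.18% of the shControl level of 14.4 ± 1.43 CPM was left (95% exact interval 0.673% to 1.93%). None of its 10528 words of 31 bases occurs in a transcript of another gene, and the same held for EEF1AKMT1.

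The other 4 genes were low in shControl as well, at a mean of 0.566 to 0.764 CPM. GJA3 (20138255 to 20161049, minus strand) encodes a connexin, a gap junction protein best known from lens fibres, and had 2, 0 and 0 counts in shTRIP6 against 27, 24 and 19 in shControl. CRYL1 (20403666 to 20525873, minus strand), an enzyme of the uronate cycle related to a lens crystallin of rabbits, had 1, 0 and 0 counts in shTRIP6 against 32, 19 and 15 in shControl. Neither gene overlapped between the groups, but each rested on a single counted shTRIP6 library, the first.

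IFT88 (20567069 to 20691437, plus strand), a core subunit of the IFT-B particle that carries cargo into the cilium, had 0, 0 and 2 counts in shTRIP6 against 15, 28 and 17 in shControl. EEF1AKMT1 (20728731 to 20773958, minus strand), a lysine methyltransferase acting on the elongation factor eEF1A, had 0, 2 and 0 counts in shTRIP6 against 17, 14 and 21 in shControl. For these 4 genes the share left was 1.48% to 3.75% of shControl, and the upper bounds of the exact intervals reached 8.52% for CRYL1, 10.4% for GJA3, 12.3% for IFT88 and 14.2% for EEF1AKMT1. At this depth a gene with so few shControl counts cannot be placed more closely. The intervals of MPHOSPH8, PSPC1, ZMYM5, ZMYM2 and XPO4 all ended at or below 2.30%.

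**Figure D1:**
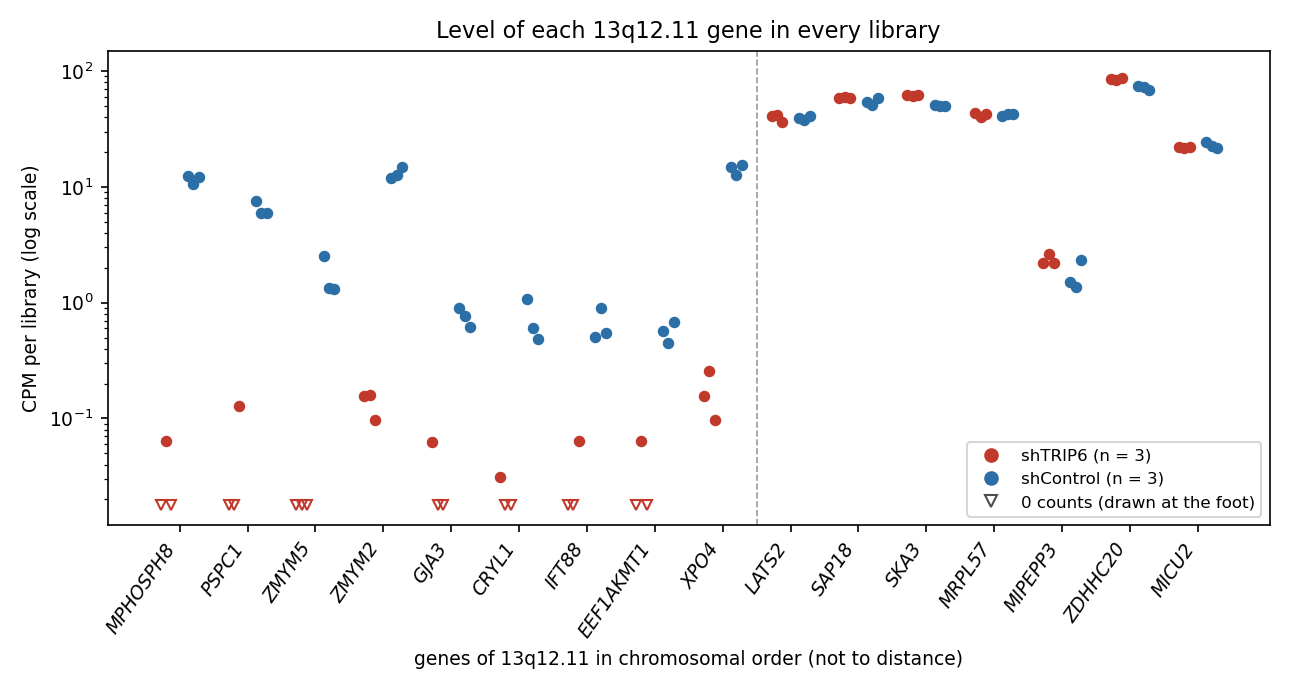
Level of each gene in every library, in CPM on a log axis, for shTRIP6 (red) and shControl (blue), with genes in chromosomal order, a dashed line between XPO4 and LATS2 and open triangles for 0 counts. The 9 genes left of the line lie at 0 to 0.256 CPM in shTRIP6, and LATS2 and the genes after it are counted in every library of both groups.

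The 3 genes MPHOSPH8, ZMYM2 and XPO4 together made up 78.2% of the CPM of the 9 in shControl. In shTRIP6 the 42 counts left over all libraries fell on the genes in other proportions: XPO4 held 38.1% of them against 28.7% of the counts in shControl, PSPC1 9.52% against 12.9% and MPHOSPH8 4.76% against 23.4%. ZMYM2 held 13 of the 42 in shTRIP6, against 26.1% of the counts in shControl. With 2 counts behind the MPHOSPH8 share in shTRIP6 and 16 behind that of XPO4, these proportions are coarse. No order among the 9 genes is read from them. The plot of the share left in each gene shows how wide these intervals are for the low genes.

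**Figure D2:**
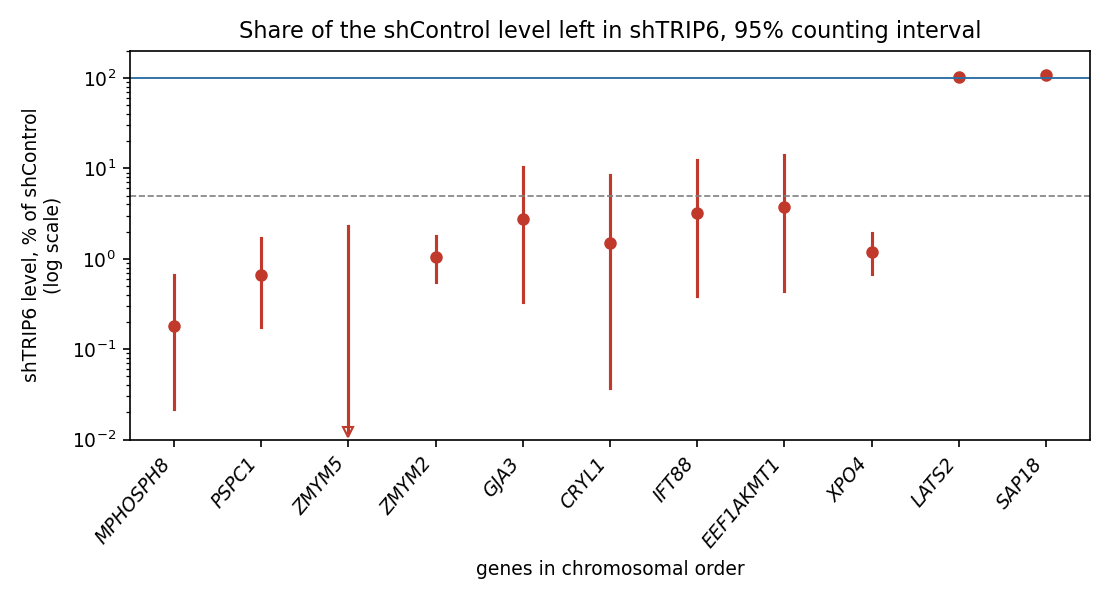
Level in shTRIP6 as a percentage of the shControl level for each gene (log axis), with exact 95% intervals from summed counts, the 100% line in blue and a dashed line at 5%; the arrow stands for ZMYM5, which had 0 counts in shTRIP6. The 9 genes from MPHOSPH8 to XPO4 lie between 0% and 3.75%, and LATS2 and SAP18 lie near 100%.

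Beyond XPO4 the level changed within 70.0 kb. LATS2, a kinase of the Hippo pathway, lies on the minus strand from 20973032 to 21061547. It was counted 1310, 1310 and 1139 times in shTRIP6 (41.1, 41.9 and 36.6 CPM), against 1162, 1168 and 1256 times in shControl (39.0, 37.5 and 40.6 CPM). The groups overlapped, and the log2 fold change was 0.03 ± 0.07 (edgeR adjusted p = 0.740). SAP18 (21140514 to 21149084, plus strand), a subunit of the ASAP complex on spliced RNA and of the SIN3 histone deacetylase complex, lies 79.0 kb further on. It had 58.4, 59.4 and 58.9 CPM in shTRIP6 against 53.8, 51.3 and 58.9 CPM in shControl. The groups overlapped at the third shControl library, and SAP18 stood at 108% of its shControl level (95% exact interval 104% to 112%, for counting error only).

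Further towards the telomere SKA3, which encodes a kinetochore protein, was higher in shTRIP6, at 61.6 ± 0.798 CPM against 50.2 ± 0.889 CPM in shControl (log2 fold change 0.29 ± 0.06, edgeR adjusted p = 0.000218). ZDHHC20, a palmitoyltransferase gene, was also higher, at 85.2 ± 2.20 CPM in shTRIP6 and 71.7 ± 3.30 CPM in shControl (log2 fold change 0.25 ± 0.06, edgeR adjusted p = 0.000746). MRPL57, a mitochondrial ribosomal protein gene, had 42.1 ± 1.56 CPM in shTRIP6 and 42.4 ± 0.981 CPM in shControl, and it was not called (edgeR adjusted p = 0.887). MICU2, a regulator of the mitochondrial calcium uniporter, had 22.0 ± 0.421 CPM in shTRIP6 and 22.9 ± 1.29 CPM in shControl and was not called either (edgeR adjusted p = 0.596). The pseudogene MIPEPP3 had 2.36 ± 0.258 CPM in shTRIP6 and 1.75 ± 0.532 CPM in shControl and was not called (edgeR adjusted p = 0.190, 0.0487 to 0.438 over the alternatives).

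On the centromeric side no counted gene set a border. Of the 9 table symbols placed between the start of the chromosome's annotated sequence and MPHOSPH8, only the pseudogene ANKRD20A9P had any count, 6 in all, every one of them in shControl. How far the low stretch reached in that direction could not be seen at this depth. Within the 1269 kb from the start of MPHOSPH8 to the end of XPO4, the connexin genes GJB2 and GJB6, LINC01072 and MIR4499 had 0 counts in all 6 libraries. IL17D had 0 counts in each shTRIP6 library and 2 in each shControl library, and was too low to be tested. No gene with a count in the stretch therefore departed from the pattern of the 9.

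Along the rest of chromosome 13, 256 other genes were tested. Of these, 108 were higher in shTRIP6, 29 were lower and 119 were not called. Over all tested genes 29% were higher and 31.2% were lower. The median log2 fold change of the 256 was 0.17, against -0.00 over all tested genes. Only 3 of the 256 kept no more than 5% of what shControl had, beside 3.36% of all tested genes. POSTN, a matricellular protein gene, had 0 counts in shTRIP6 against 1.22 ± 0.253 CPM in shControl. SLITRK6 had 0.180 ± 0.0467 CPM in shTRIP6 against 4.27 ± 0.428 CPM in shControl. NALCN-AS1, an antisense RNA, had 0 counts in shTRIP6 against 0.446 ± 0.0632 CPM in shControl. These 3 lie apart from each other and from the stretch. They were named after their values had been seen.

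**Figure D3:**
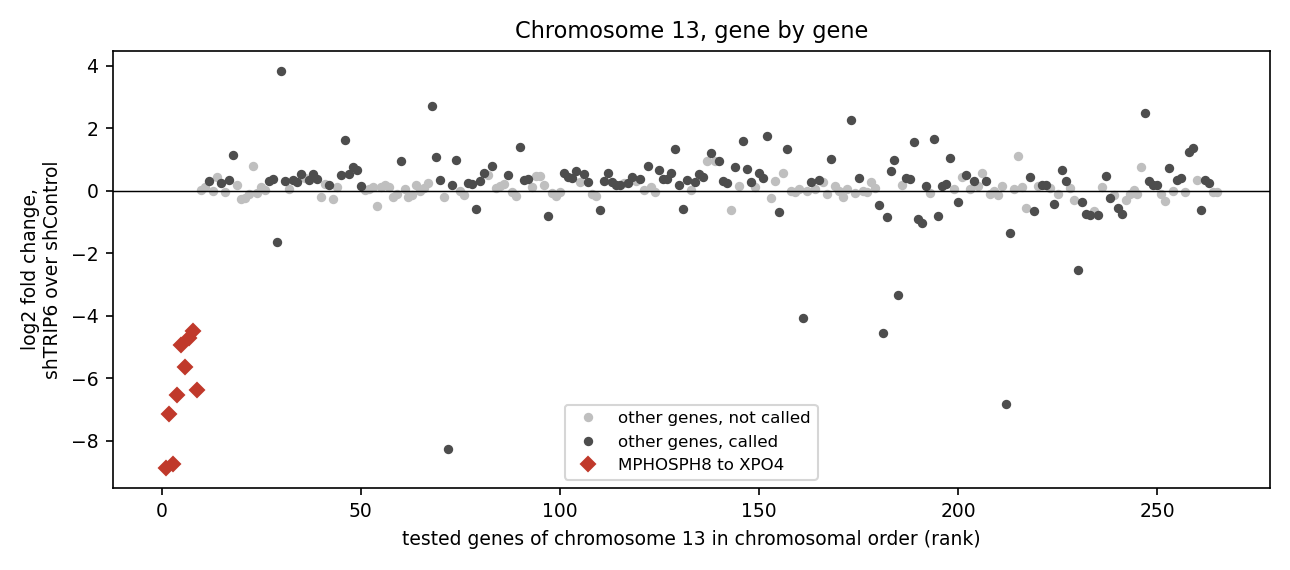
Fitted log2 fold change, shTRIP6 over shControl, of the 265 tested genes of chromosome 13, in chromosomal order by rank from the centromere; red diamonds are the 9 genes from MPHOSPH8 to XPO4, dark points other called genes and light points genes not called. The 9 stand first in the order and below -4, followed by 256 genes with a median of 0.17; fitted values of genes with 0 counts in shTRIP6, such as ZMYM5, depend on the prior count of the fit.

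The stretch was one of 14 runs of 3 or more consecutive tested genes that kept no more than 5% of their shControl level, which together held 75 of the 495 such genes with a known position. By number of genes only a run of zinc finger genes on chromosome 19 was longer, with 11 genes over 569 kb. The UGT1A cluster of chromosome 2, whose transcripts share exons, and another zinc finger run of chromosome 19 also had 9 genes, but over 156 kb and 370 kb. These 2 chromosome 19 runs are neighbours, the shorter ending at 52897693 and the longer starting at 52927135. They are counted apart only because a tested gene between them kept more than 5%. A run on chromosome 9 around CDKN2A held 8 genes over 1369 kb. Shares in these runs are at most 5% by the way the runs were found, and they are listed as values only: 1.33% for CDKN2A and 1.31% for MTAP on chromosome 9, 1.25% for RHOD and 0.432% for SYT12 on chromosome 11, and 1.49% for CPVL and 2.25% for CHN2 on chromosome 7. CREB5, near the chromosome 7 run, kept 12.2%. No test of whether these runs have anything in common was made.

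Outside chromosome 13, the profile of the summed stretch over the 6 libraries was set against 10086 genes with at least 10 CPM in shControl, by the root mean square distance of log2(CPM + 0.5) after subtracting each gene's own shControl mean. The nearest was CD24, which encodes a glycosylated surface protein, at a distance of 0.0978. It had 4.13 ± 0.318 CPM in shTRIP6 and 237 ± 2.14 CPM in shControl. KCNK1, a potassium channel gene, followed at 0.133, and the keratin gene KRT7 at 0.152. UGT1A10 and UGT1A9, which share exons and so are not independent, both stood at 0.153. The order of these genes depends on the pseudocount of 0.5 CPM, which is close to the 0.446 CPM of the stretch in shTRIP6. By the share of the shControl level left, 0.889% for the stretch, KCNK1 with 0.754% and UGT1A10 with 1.09% lay nearer than CD24 with 1.74%. Likeness on this measure says nothing of shared control.

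The levels of the 9 genes, scaled by exon length, were below the median of tested protein-coding genes in the control cells as well. Per kilobase of exon (CPM divided by the length of all annotated exons), MPHOSPH8 had 0.00434 in shTRIP6 and 2.39 in shControl. In shControl 30.5% of 13271 protein-coding genes lay below it. XPO4 had 0.0162 in shTRIP6 and 1.37 in shControl, PSPC1 0.00890 in shTRIP6 and 1.35 in shControl, and ZMYM2 0.0101 in shTRIP6 and 0.961 in shControl. In shControl 21.8% of coding genes lay below XPO4, 21.6% below PSPC1 and 17.5% below ZMYM2. ZMYM5 and EEF1AKMT1 had 0.466 and 0.423 in shControl, CRYL1 0.167, GJA3 0.147 and IFT88 0.106, so that 2.92% to 11.2% of coding genes lay below these 5. The median over coding genes was 5.39 in shTRIP6 and 5.81 in shControl. SAP18, at 17.3 in shTRIP6 and 16.1 in shControl, stood above 77.4% of coding genes in shControl, and LATS2, at 7.15 in shTRIP6 and 7.00 in shControl, above 55.6%.

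**Figure D4:**
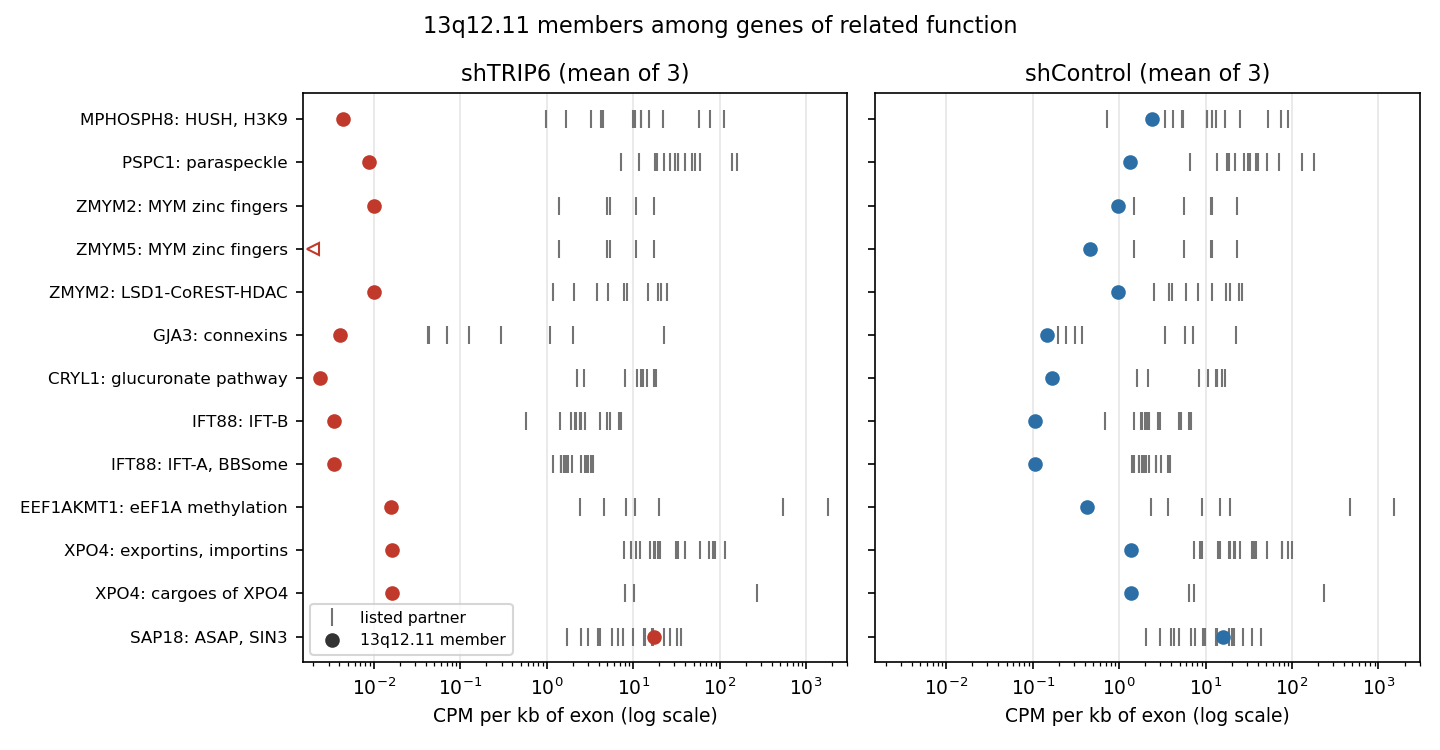
Mean level per kilobase of exon (log axis) of each gene (filled circle) and of the listed partners of its protein (vertical ticks) in shTRIP6 on the left and shControl on the right; the open triangle is ZMYM5, at 0 in shTRIP6. Only partners that passed the filter on low counts are drawn. The genes from MPHOSPH8 to XPO4 lie left of all drawn partners in both panels, save that MPHOSPH8 lies above DNMT3A in shControl. SAP18 lies among its partners.

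Set beside the tested genes whose products work with theirs, the 9 stood at or near the bottom in both groups, as the plot of levels among partners shows. In shTRIP6 a low place follows from how the 9 were chosen. Partners too low to be tested were not ranked. For GJA3 only 8 of 19 connexins were ranked, and GJB2 and GJB6, with 0 counts in all 6 libraries, were left out. IFT88 had 0.00351 CPM per kb in shTRIP6 and 0.106 in shControl, whereas the lowest of 16 other IFT-B subunits, IFT27, had 0.574 in shTRIP6 and 0.689 in shControl. XPO4 lay below all 18 exportins and importins listed, the lowest of which in shControl was IPO11 at 7.38 CPM per kb against a median of 23.4. PSPC1 lay below all 15 paraspeckle genes, with RBM7 the lowest at 6.64 in shControl. MPHOSPH8 had 1 of its 14 partners below it in shControl, DNMT3A at 0.733. These gaps in shControl are not part of the difference that chose the genes, but the partners were listed with results of these data known, and they get no test.

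Whether the partner genes differed between the groups was read from the same fit, with adjustment over all 15473 genes. The 12 lists held 136 different tested genes, of which 33 were higher in shTRIP6, 48 were lower and 55 were not called. The share called was 59.6%, beside 60.1% of all tested genes, and the median log2 fold change was -0.06, beside -0.00. A single partner gene, the connexin GJB5, kept no more than 5% of its shControl level. None of the lists was tested as a set, and no shift of a list is read from the counts below.

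Of 14 tested partners of MPHOSPH8 in HUSH and histone H3 methylation, 4 were higher in shTRIP6, 6 were lower and 4 were not called, with a median log2 fold change of -0.03. EHMT1, a histone H3 methyltransferase, was lower, at 36.6 ± 1.64 CPM in shTRIP6 and 74.7 ± 2.42 CPM in shControl (log2 fold change -1.03 ± 0.06, edgeR adjusted p = 4.88e-11). CBX5, which encodes the heterochromatin protein HP1 alpha, was lower too (-0.47 ± 0.05). TRIM28, the corepressor of KRAB zinc finger proteins, was higher, at 455 ± 9.42 CPM in shTRIP6 and 364 ± 23.4 CPM in shControl (0.32 ± 0.05), and so was the DNA methyltransferase gene DNMT3A (0.40 ± 0.12).

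Among 15 paraspeckle genes beside PSPC1, 2 were higher in shTRIP6, 5 were lower and 8 were not called, with a median of 0.00. NEAT1, the scaffold RNA of the paraspeckle, was at 514 ± 40.2 CPM in shTRIP6 and 630 ± 45.6 CPM in shControl (log2 fold change -0.29 ± 0.06, edgeR adjusted p = 0.000195). The RNA-binding protein gene HNRNPH3 was lower by a like amount (-0.27 ± 0.06). RBM3, a cold-inducible RNA-binding protein gene, was higher (0.47 ± 0.05), as was TARDBP (0.32 ± 0.05), which encodes an RNA-binding protein of splicing.

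Around ZMYM2 and ZMYM5 no called partner was higher, whereas of all tested genes 29% were higher and 31.2% were lower. Of 5 other MYM-type genes 2 were lower and 3 were not called, with a median of -0.13. ZMYM3 had 34.8 ± 1.40 CPM in shTRIP6 and 81.6 ± 4.63 CPM in shControl (log2 fold change -1.23 ± 0.06, edgeR adjusted p = 5.39e-12), and QRICH1 was lower by less (-0.42 ± 0.07). Of 10 tested LSD1-CoREST-HDAC genes 6 were lower and 4 were not called, with a median of -0.19. GSE1 had 16.0 ± 1.40 CPM in shTRIP6 and 50.1 ± 3.07 CPM in shControl (-1.65 ± 0.08), and RCOR1, the CoREST subunit itself, 52.8 ± 0.928 CPM in shTRIP6 and 73.8 ± 1.02 CPM in shControl (-0.48 ± 0.06).

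Of 19 connexin genes listed beside GJA3, 8 were tested, of which 5 were lower in shTRIP6, 3 were not called and none was higher, with a median log2 fold change of -2.01. Some of the 8 passed the filter on low counts only through shControl, where they were higher, so the median follows in part from the filter and is not read as a shift of the family. GJA1, for one, had 1, 2 and 11 counts in shTRIP6 against 19, 29 and 28 in shControl. GJB5, which likewise passed the filter only through shControl, had 2, 6 and 1 counts in shTRIP6 against 130, 151 and 147 in shControl. As a description, 2.05% of its shControl level was left (95% exact interval 0.931% to 3.93%). With so few counts its fitted log2 fold change, -5.55, ran from -6.49 to -5.15 over the alternatives. GJD3 had 0.964 ± 0.510 CPM in shTRIP6 and 5.18 ± 0.598 CPM in shControl (-2.42 ± 0.29). GJB2 and GJB6, which lie inside the stretch, were among those not tested.

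**Figure D5:**
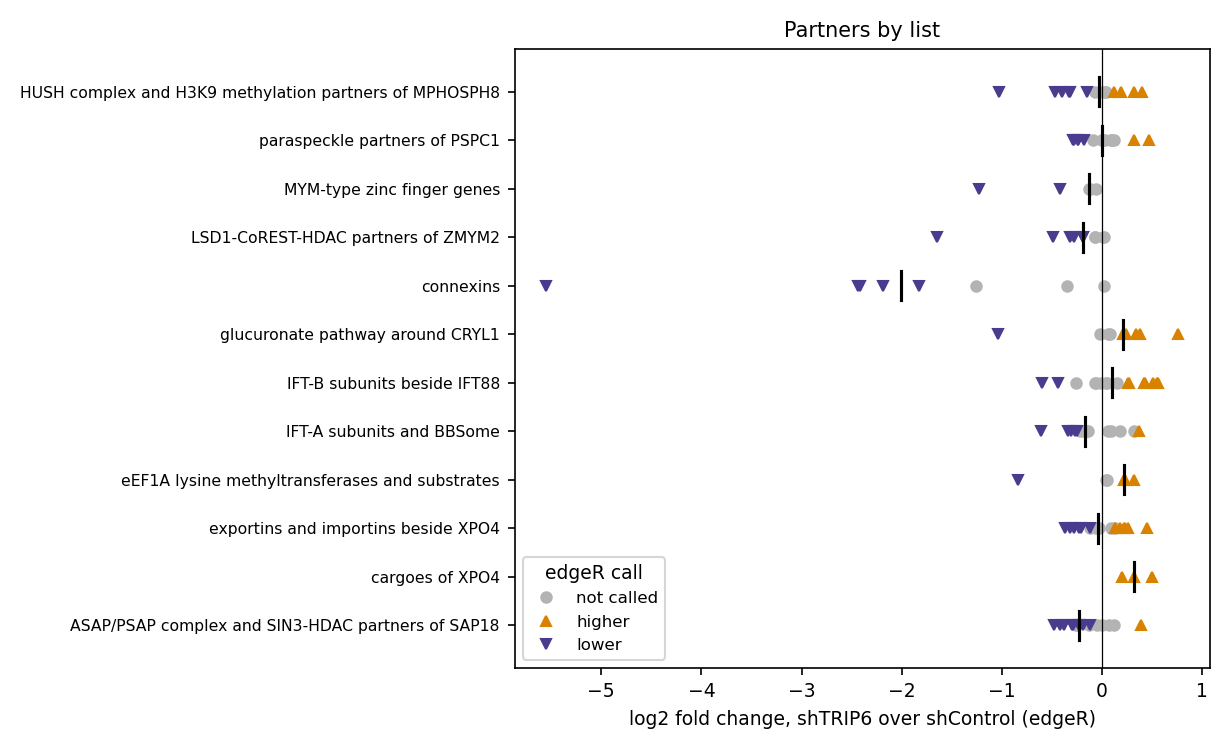
Log2 fold change, shTRIP6 over shControl, of the tested genes in each of the 12 partner lists (rows); triangles up are genes called higher, triangles down genes called lower, grey points genes not called, and the black tick is the median of the list. The connexin list has its median at -2.01, and the medians of the other lists lie between -0.23 and 0.32.

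The list around CRYL1 held 9 tested genes, 7 of glucuronate and related sugar metabolism and 2 of the zeta-crystallin family of quinone reductases, CRYZ and CRYZL1. Of the 9, 5 were higher in shTRIP6, 1 was lower and 3 were not called, with a median of 0.21, and CRYZ and CRYZL1 are 2 of the 5. UGDH, which makes UDP-glucuronate, was the lower one, at 32.7 ± 0.906 CPM in shTRIP6 and 67.1 ± 3.26 CPM in shControl (log2 fold change -1.04 ± 0.06, edgeR adjusted p = 7.30e-11). CRYZL1 rose by 0.76 ± 0.11 and CRYZ by 0.38 ± 0.08. Of 7 tested genes around EEF1AKMT1, 4 were higher, 1 was lower and 2 were not called, with a median of 0.22. EEF1AKMT2, another eEF1A methyltransferase, was higher (0.32 ± 0.10), and EEF1A2, the eEF1A form of muscle and neurons, was lower (-0.84 ± 0.06). EEF1A1 was called higher (0.23 ± 0.03), but it has many pseudogenes among which reads could have been split.

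Of 16 IFT-B genes beside IFT88, 7 were higher in shTRIP6, 2 were lower and 7 were not called, with a median of 0.10. IFT74, which pairs with IFT81 in the core of the particle, had 11.2 ± 1.06 CPM in shTRIP6 and 7.59 ± 0.371 CPM in shControl (log2 fold change 0.56 ± 0.13, edgeR adjusted p = 0.000828), and TTC26 was higher by a like amount (0.55 ± 0.12). IFT80 (-0.60 ± 0.09) and IFT46 (-0.44 ± 0.12) were lower. Of 14 genes of IFT-A and the BBSome 1 was higher, 5 were lower and 8 were not called, with a median of -0.17. TTC21B was the higher one (0.37 ± 0.08), and TTC8 was lower (-0.60 ± 0.11). IFT140 was lower (-0.34 ± 0.13) with an edgeR adjusted p of 0.0293, a call lost in 3 of 14 alternatives (0.0152 to 0.178).

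Of 18 exportin and importin genes beside XPO4, 6 were higher in shTRIP6, 6 were lower and 6 were not called, with a median of -0.04. XPO5, the exportin of microRNA precursors, had 169 ± 2.66 CPM in shTRIP6 and 124 ± 5.16 CPM in shControl (log2 fold change 0.45 ± 0.05, edgeR adjusted p = 2.39e-07), and IPO13 was also higher (0.26 ± 0.07). XPO7 (-0.37 ± 0.05) and XPO6, the exportin of actin (-0.32 ± 0.05), were lower. Of the 5 cargo genes listed for XPO4, SOX2 and SRY could not be tested. The other 3 were higher in shTRIP6, beside 29% of all tested genes. EIF5A2 had 57.5 ± 1.56 CPM in shTRIP6 and 40.6 ± 5.20 CPM in shControl (0.50 ± 0.08), SMAD3 74.0 ± 1.76 CPM in shTRIP6 and 59.4 ± 2.09 CPM in shControl (0.32 ± 0.06), and EIF5A, named after its value was seen, changed by 0.20 ± 0.05.

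Beside SAP18, which stood at 108% of its shControl level, 9 of 17 tested genes of its complexes were lower in shTRIP6, 1 was higher and 7 were not called, with a median of -0.23. RNPS1, its partner in the ASAP complex, had 115 ± 4.48 CPM in shTRIP6 and 161 ± 8.25 CPM in shControl (log2 fold change -0.48 ± 0.05, edgeR adjusted p = 2.51e-07), and ARID4B of the SIN3 complex was lower too (-0.42 ± 0.08). SAP30, another SIN3 subunit, was the higher one (0.39 ± 0.10). Of all tested genes 31.2% were lower and 29% were higher. Per kilobase of exon SAP18 lay above 13 of these 17 genes in shTRIP6 and above 11 in shControl.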

How the data were processed

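The 6 libraries were deposited as counts per gene symbol, 1 file per library, with no normalization by the authors. TopHat2, edgeR, limma and the build hg38 appear in the submitters' processing notes, with neither role nor version. The program, annotation and strandedness behind the assignment of reads to genes were not stated in the sources used here, so antisense pairs cannot be told apart, but no exon of the 10 genes overlapped one of another table gene. Groups and replicate numbers came from the labels. Symbols were placed with GENCODE release 29 (25813 of 27980).

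shTRIP6 was set against shControl with edgeR 4.0.16 under R 4.3.3, using TMM scaling and filterByExpr. The model held no term but the group, the test was the quasi-likelihood one, and a gene was called at a Benjamini-Hochberg adjusted p under 0.05. This step was tested on simulated data in which 200 genes were changed. In the data 9307 were called, so the simulation does not cover changes this widespread. The SE is the log2 fold change divided by the square root of F. Intervals on shares are exact, at 95%, from summed counts scaled by library size, and a gene at 0 was set to a floor of 3 counts over the group. Alternatives were 3 other scalings, 2 other filters, DESeq2 1.42.0, limma-voom (limma 3.58.1), a replicate block and leaving out each library. Named were the 10 genes, their neighbours above 1 CPM, up to 2 rises and 2 falls per partner list above 1 CPM, the 5 nearest profiles, genes of 3 other runs and TRIP6. The 10 genes, the partner lists and the rule were chosen with earlier results of these data known. Sequences are from RefSeq. Tables were handled in Python 3.11.15.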

Additional observations from a re-analysis of the deposited data

How the results depend on the processing

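Over 14 alternatives the number of called genes was 8460 to 9644, against 9307 as reported, and that of called partner genes 69 to 82, against 81. The share of the shControl level left over the 9 genes was 0.791% to 1.18% over 10 alternatives, against 0.889%. The highest value, 1.18%, is the median of the 9 per-gene shares, which weights the low genes equally, and it moved by more than the spread between replicates. None of the called genes followed over the alternatives changed direction. Other called genes named in the text, such as KRT19, CD24 and CDKN2A, were not followed in this way. IFT140 lost its call in 3 alternatives and MIPEPP3 gained one in 1, and for both the cause was not tested. Other scalings shifted the median log2 fold change by at most 0.05 and gave 46.5% to 53.7% of calls as higher in shTRIP6, against 48.2%.

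Replicate numbers did not pair the libraries: deviations from the group means correlated at 0.004, 0.03 and -0.06 between libraries of the same number. With the replicate block 9079 genes and 80 partner genes were called. The counts of library pairs were also compared by chi-square per degree of freedom. shControl replicate 1 stood at 10.7 from replicate 2 and 11.7 from replicate 3, which stood at 4.81 from each other. Pairs within shTRIP6 had 3.05 to 4.59.

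Counts of 0 to 8 in shTRIP6 limit what can be said of differences among the 9 genes, and fitted fold changes of genes at or near 0 depend on the prior count, so shares of counts were given in their place.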

Other observations

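Even counts were in excess among low genes in every library. Genes with 4 counts outnumbered genes with 3 counts in each, by 347 to 398 against 311 to 326 in shTRIP6 libraries and by 340 to 367 against 274 to 303 in shControl libraries. Of the 12 values above 0 of the 9 genes in shTRIP6, 4 were exactly 2. The others were 1, 3, 3, 4, 5, 5, 5 and 8, so no excess of even counts is read from these genes. Whether single counts stand for independent fragments was not tested.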
